A study of Mus musculus with 20 samples.

Results

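The 46 genes described here carry out the interferon response, the sensing of foreign nucleic acid and the presentation of antigen on class I molecules. They were taken as a list of mouse gene symbols, and all 46 were found among the 39179 Ensembl genes counted in immortalised mouse kidney epithelial cells. Enough reads for a test were obtained for 33 of the 46, while 12671 genes were tested in all. The other 13 (Ifit1, Ifitm1, Isg15, Mx1, Mx2, Rsad2, Gbp2, Gbp3, Gbp7, Psmb8, Psmb9, Slfn2 and Xaf1) are given by their counts.

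RNA was sequenced from 20 libraries in 4 groups of 5, all of strain C57BL/6J and all grown with added uridine, to compare cells with and without Fh1, the gene of the Krebs cycle enzyme fumarate hydratase. Rec cells were labelled as carrying re-expressed wild-type Fh1. Clone1 and clone19 were labelled as carrying an Fh1 deletion. Fh1_fl_fl cells were labelled wild type for Fh1. Each deleted line is a clone, so in a comparison with Fh1_fl_fl the deletion and the history of that clone cannot be told apart. Nor can re-expression and the history of the Rec cells be told apart where Rec is compared with another group. The labels do not give the part of Fh1 that was deleted, the clone from which Rec was made, or whether the 5 libraries of a group were separate cultures. The spread behind each p-value is therefore that between libraries and may be technical.

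The libraries held 5988447 to 18972176 reads assigned to genes. Fh1 itself averaged 71.3 ± 7.08 CPM, a read count scaled to a library of fixed size, in Rec, 113 ± 5.94 CPM in clone1 and 84.8 ± 7.32 CPM in clone19, against 92.4 ± 6.16 CPM in Fh1_fl_fl (SD, n = 5 each). The mean was lowest in Rec and highest in clone1. As far as it reaches, this count thus follows neither the label of re-expression in Rec nor that of deletion in clone1. It covers the whole gene and does not measure the deletion itself, and the names below are those of the labels. One library, clone19 replicate 3, stood apart in that the transcript Gm42418 took 8.20% of its gene counts, against a median of 0.314% over the 20 libraries. All 10 kidney epithelial markers were detected in every group, and their summed level was 5810 to 6596 CPM in Rec, 2996 to 3687 CPM in clone1 and 2703 to 3078 CPM in clone19, against 4252 to 4897 CPM in Fh1_fl_fl. The 10 leukocyte markers summed to 18.98 to 25.06 CPM in Rec, 18.6 to 21.4 CPM in clone1 and 12.7 to 17.1 CPM in clone19, against 41.9 to 48.8 CPM in Fh1_fl_fl. Csf1r was the largest contributor, with 20.98 CPM in Rec, 13.4 CPM in clone1 and 7.54 CPM in clone19, against 43.5 CPM in Fh1_fl_fl, and Tyrobp was at 0 in every library. Other leukocyte markers were higher in the clones, with Cd53 at 0.0327 CPM in Rec, 4.925 CPM in clone1 and 3.15 CPM in clone19, against 0.0351 CPM in Fh1_fl_fl. Laptm5 averaged 0 CPM in Rec, 0.0698 CPM in clone1 and 1.39 CPM in clone19, against 0.0819 CPM in Fh1_fl_fl, and Adgre1 and Lyz2 were each below 1 CPM in every group, with their higher means in the clones. Ptprc, the pan-leukocyte marker, averaged 0.456 CPM in Rec, 0.692 CPM in clone1 and 0.599 CPM in clone19, against 0.519 CPM in Fh1_fl_fl. The 5 endothelial markers summed to 7.14 to 9.8 CPM in clone19 and to 2.78 CPM at most in any library of the other groups. In clone19 this sum was mostly Cdh5 (7.92 CPM), and Pecam1, Kdr, Tie1 and Emcn averaged below 1 CPM in every group. The 5 fibroblast markers summed to 12.1 to 15.3 CPM in clone19 and to 6.93 CPM at most elsewhere, with Lum at 0 throughout. In clone19 this sum was mostly Dcn (8.501 CPM) and Pdgfra (3.57 CPM). Col1a1 was instead highest in clone1 (3.45 CPM, against 1.41 CPM in clone19), and Col1a2 was highest in Fh1_fl_fl (0.148 CPM). The part of these markers in the differences below was not tested.

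Type I interferons bind a receptor made of IFNAR1 and IFNAR2, which activates STAT proteins, and STAT2 and IRF9 belong to the complex that binds the interferon-stimulated response element (ISRE) in promoters. Viral RNA and stray DNA are sensed by RIG-I (Ddx58), MDA5 (Ifih1), TLR3 and the cGAS pathway, whose signals pass through adaptors such as MAVS and STING and through IRF3 and IRF7. Many of the induced genes restrict viruses, and others, such as the TAP transporter and the immunoproteasome, supply peptides to class I molecules on the cell surface. Epithelial cells express much of this machinery at a resting level without added interferon.

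Promoter sequences are shown for the tested genes whose window held the ISRE letters and that either appear below with every library or differed over 2-fold in at least 1 comparison, because these letters are what the interferon complex is known to bind. Each stretch is from RefSeq (GRCm38.p6), on the strand of its gene and read 5′ to 3′, with the ISRE letters in capitals, and up to 15 bases are shown on each side. The stretch begins at the edge of the window for Irf2, and it ends with the capitals for Ifitm3 and Ddx58, where these lie beyond the annotated start.
Slfn9: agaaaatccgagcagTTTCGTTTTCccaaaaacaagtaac
Ifit3: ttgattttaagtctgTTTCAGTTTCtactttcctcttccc
Ifitm3: caagccaaaattcagGAAAAGGAAA
Stat2: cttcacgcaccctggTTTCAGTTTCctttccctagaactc
Irf2: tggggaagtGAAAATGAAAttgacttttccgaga
Ddx58: agcgccctgaggcagTTTCGATTTC
B2m: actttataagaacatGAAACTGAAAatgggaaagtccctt
The stretches lie at chr11:82991851-82991890 for Slfn9, chr19:34583392-34583431 for Ifit3, chr7:141010733-141010757 for Ifitm3, chr10:128270261-128270300 for Stat2, chr8:46739495-46739528 for Irf2, chr4:40239814-40239838 for Ddx58 and chr2:122147533-122147572 for B2m. The letters searched were GAAANNGAAA on both strands, in windows from 250 bases before to 50 bases after each annotated start. They were found for 16 of the 38 listed genes with a window (42.1%), against 1079 of 27025 genes in the whole table (3.99%). With a C required after the last A the shares were 31.6% of the listed genes and 0.944% of all genes. The letters TTCNNNGAA, a form of the gamma-activated site, occurred in 23.7% of the listed genes and in 9.55% of all genes, and they overlapped an ISRE match in Ifitm3 and Bst2. Among the 27 tested genes with a window, 10 held the ISRE letters: those above and Ifitm2, Ifih1 and Bst2. A match describes the letters alone and does not show that a factor binds there. The genes that held the letters did not share a direction: Slfn9 fell and Ifit3 rose in both clones, as described below. Usp18, Parp9, Parp14, Dhx58, Tmem173, Mx1, Mx2 and Tap2 had no entry.

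Levels were spread widely across the list. Per kilobase of exon, the highest means in Fh1_fl_fl were 264.5 CPM per kb for B2m, the light chain of class I molecules, and 92.6 CPM per kb for Ifitm2, which restricts virus entry. Ifit2 had 28.4, Tapbp 23.8 and Mavs 23.3 CPM per kb in Fh1_fl_fl, while Irf7 had 0.212 and Tap1 0.111 CPM per kb. The median coefficient of variation over the 5 libraries of a group was 11.3% across the tested genes of the list and the 4 groups.

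Genes were called changed at an adjusted p under 0.05 (edgeR quasi-likelihood test, Benjamini-Hochberg over the 12671 genes) and over 2-fold where the test against a log2 bound of 1 passed the same threshold. In clone1 against Fh1_fl_fl, 11 of the 33 tested genes were higher (background over all tested genes 38%) and 16 were lower (background 40.5%). Over 2-fold, 1 was higher (10.9%) and 10 were lower (10.9%). In clone19 against Fh1_fl_fl, 7 were higher (36.8%) and 20 were lower (36.1%), with 2 over 2-fold higher (8.2%) and 7 over 2-fold lower (7.28%). The median log2 fold change of the tested genes was -0.19 in clone1 and -0.33 in clone19, and over all tested genes it was -0.029 in clone1 and 0.0036 in clone19. The comparisons of the clones share the Fh1_fl_fl libraries.

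In the libraries labelled Rec, whose Fh1 count was not above that of the clones, the list was compared with each other group. In Rec against clone1, 11 of the 33 were higher (background 39.7%) and 17 lower (38.1%), with 4 over 2-fold higher (9.12%) and 6 over 2-fold lower (12.9%). In Rec against clone19, 13 were higher (35.8%) and 16 lower (38%), with 3 over 2-fold higher (5.11%) and 7 over 2-fold lower (10.4%). In Rec against Fh1_fl_fl, 3 were higher (33.4%) and 23 lower (37.4%), with 0 over 2-fold higher (3.61%) and 10 over 2-fold lower (7.44%); DESeq2 gave 6 over 2-fold lower. With library totals in place of TMM factors the share of all calls that were higher in Rec than in Fh1_fl_fl was 36.6%, against 47.2%, and the listed genes gave 3 higher and 26 lower. The median log2 fold changes of the tested genes were -0.35 in Rec against clone1, -0.23 in Rec against clone19 and -0.69 in Rec against Fh1_fl_fl, while those of all tested genes were 0.014 against clone1, -0.018 against clone19 and -0.034 against Fh1_fl_fl. In clone1 against clone19, 11 were higher (31.6%) and 12 lower (33.5%), with 1 over 2-fold higher (4.79%) and 2 over 2-fold lower (4.79%). The last count was 0 with RLE factors, with DESeq2 and in a fit of only these groups, and 0 to 2 when 1 library was left out. Without clone19 replicate 3, the library rich in Gm42418, clone19 against Fh1_fl_fl gave 7 higher and 19 lower (2 and 7 over 2-fold), Rec against clone19 gave 13 higher and 17 lower (3 and 6 over 2-fold), and clone1 against clone19 gave 12 higher and 12 lower (2 and 0 over 2-fold). As shares of the 33, the genes over 2-fold lower came to 30.3% in clone1, 21.2% in clone19 and 30.3% in Rec, each against Fh1_fl_fl and each above its background. Those over 2-fold higher were 1 gene in clone1 (3.03%), 2 in clone19 (6.06%) and 0 in Rec (0%). These are too few genes to be read against the backgrounds of 10.9% in clone1, 8.2% in clone19 and 3.61% in Rec. The genes tested had first to pass a count filter, so these counts describe the 33 and not the whole list. Dhx58, counted as higher in Rec in each comparison, passed that filter through the Rec libraries. The shares against Fh1_fl_fl all rest on the same Fh1_fl_fl libraries. The 10 genes over 2-fold lower in Rec against Fh1_fl_fl came to 7 to 9 when 1 library was left out.

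**Figure D1:**
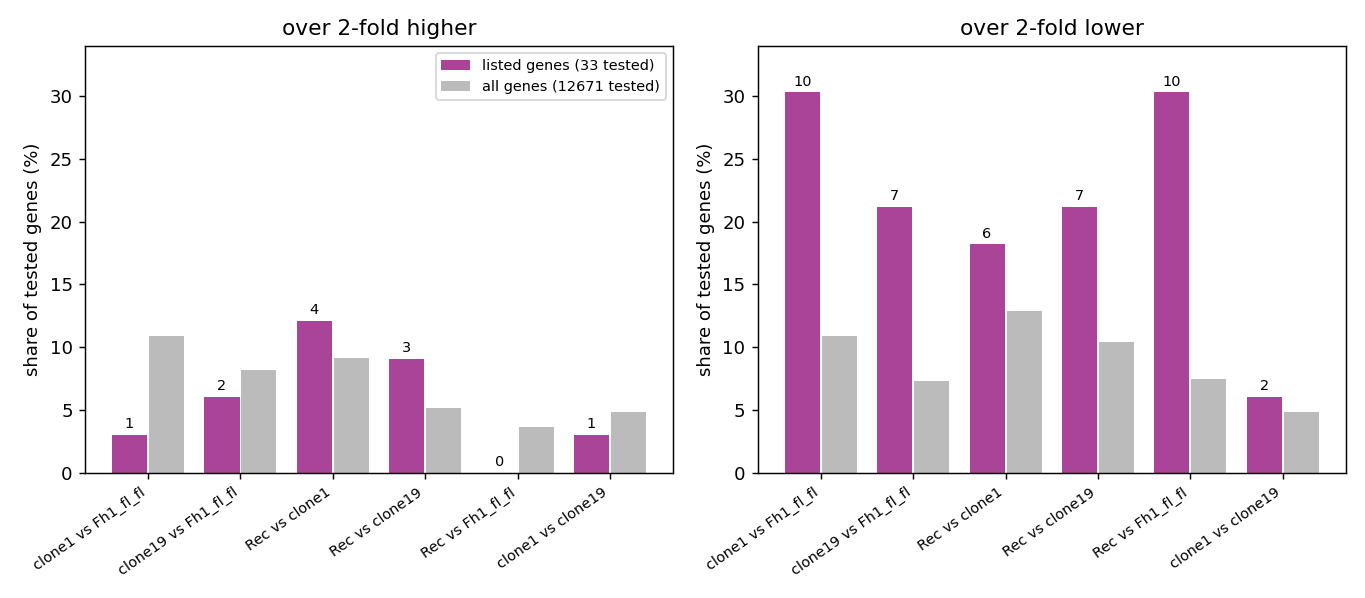
Share of tested genes over 2-fold higher (left) and over 2-fold lower (right) in each of 6 comparisons, as a percentage, for the 33 listed genes (coloured bars, with the number of genes above each) and for all 12671 tested genes (grey bars). The largest shares of listed genes are the 10 over 2-fold lower in clone1 and the 10 over 2-fold lower in Rec, both against Fh1_fl_fl.

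**Figure D2:**
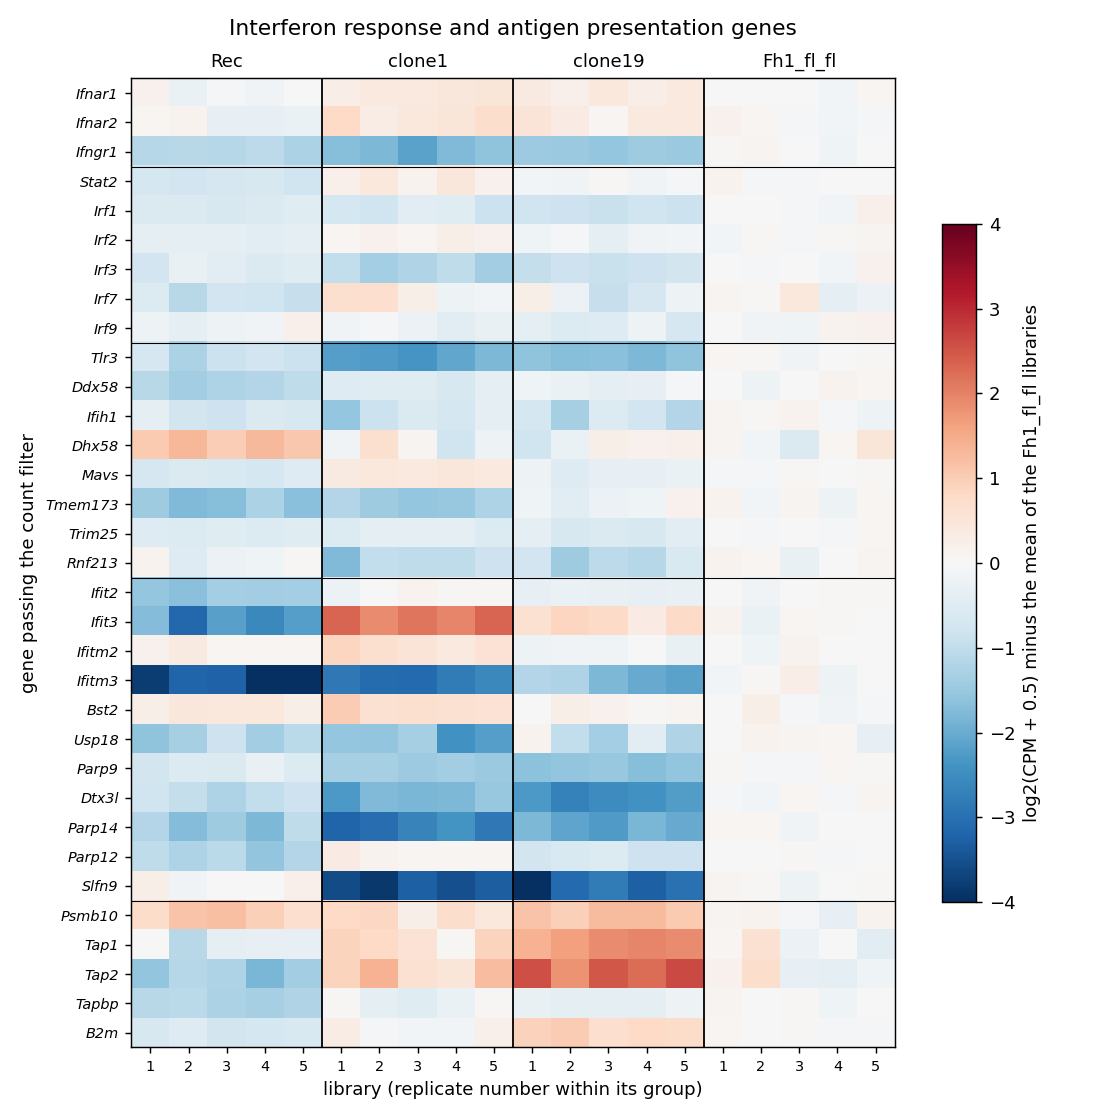
Log2(CPM + 0.5) of the 33 tested genes in each of the 20 libraries, minus the mean of the 5 Fh1_fl_fl libraries, with groups in columns and genes ordered by role in rows; red is higher and blue lower. Slfn9 is blue in the 10 clone libraries and near 0 in Rec, while Ifit3 and Tap2 are red in the clones and blue in Rec.

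Among the receptors, the chains for type I interferon were higher in both clones and Ifngr1, the ligand-binding chain for interferon gamma, was lower. Ifnar1 had 53.6, 39.6, 45.8, 43.4 and 48.1 CPM in Rec. In clone1 it had 57.8, 63.1, 62.6, 64.7 and 66.8 CPM and in clone19 60.7, 55.2, 63.9, 57.5 and 62.03 CPM, against 48.4, 47.8, 47.2, 44.2 and 50.4 CPM in Fh1_fl_fl. Every clone library was above every Rec and Fh1_fl_fl library, and Rec overlapped Fh1_fl_fl. Ifnar1 rose in clone1 (log2 fold change 0.40, SE 0.069, adjusted p = 7.61e-06) and in clone19 (log2 fold change 0.33, SE 0.070, adjusted p = 0.00016), and its log2 fold change in Rec against Fh1_fl_fl was -0.043 (SE 0.070, adjusted p = 0.591). With library totals the adjusted p of Ifnar1 in Rec was 0.0348 (range over the alternatives 0.0348 to 0.941). Ifnar2 had 17.6, 18.4, 12.9, 13.1 and 13.8 CPM in Rec. In clone1 it had 29.2, 20.4, 22.3, 23.2 and 27.3 CPM and in clone19 24.1, 20.9, 17.5, 21.7 and 21.7 CPM, against 18.6, 17.4, 15.8, 15.1 and 15.9 CPM in Fh1_fl_fl. The clone1 libraries lay above all Rec and Fh1_fl_fl libraries, whereas clone19 overlapped both. Ifnar2 rose in clone1 (log2 fold change 0.57, SE 0.11, adjusted p = 4.09e-05) and in clone19 (log2 fold change 0.35, SE 0.11, adjusted p = 0.00683), the second call being lost with library totals (adjusted p = 0.0737, range over the alternatives 0.00216 to 0.0737). Ifngr1 averaged 26.1 ± 1.45 CPM in Rec, 16.5 ± 2.23 CPM in clone1 and 20.6 ± 0.719 CPM in clone19, against 58.5 ± 4.53 CPM in Fh1_fl_fl, and no 2 groups overlapped. It was over 2-fold lower than in Fh1_fl_fl in Rec (log2 fold change -1.17, SE 0.076), in clone1 (-1.82, SE 0.081) and in clone19 (-1.50, SE 0.080). In these bulk libraries, fewer cells that express a gene and less RNA per cell cannot be told apart.

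Of the transcription factors, Stat2 was lowest in Rec. Stat2 had 15.5, 15.1, 15.9, 16.2 and 14.8 CPM in Rec. It had 29.7, 34.4, 28.6, 35.6 and 29.3 CPM in clone1 and 24.1, 23.3, 26.4, 23.5 and 24.4 CPM in clone19, against 28.4, 24.3, 25.1, 25.6 and 25.9 CPM in Fh1_fl_fl. All Rec libraries lay below all others, and all clone1 libraries lay above the rest. Stat2 fell in Rec against Fh1_fl_fl (log2 fold change -0.75, SE 0.075, adjusted p = 1.5e-09) and rose in clone1 (log2 fold change 0.28, SE 0.072, adjusted p = 0.0011); the rise was lost with library totals (adjusted p = 0.105, range over the alternatives 0.000121 to 0.105). Irf9, its partner in the ISRE complex, had 6.17, 5.51, 6.14, 6.47 and 8.28 CPM in Rec. Its levels were 6.47, 6.78, 5.94, 5.19 and 5.73 CPM in clone1 and 5.48, 4.72, 4.9, 6.1 and 4.299 CPM in clone19, against 7.301, 6.44, 6.24, 7.88 and 8.07 CPM in Fh1_fl_fl. Only clone19 and Fh1_fl_fl did not overlap, and Irf9 fell in clone19 (log2 fold change -0.50, SE 0.14, adjusted p = 0.00188). In Rec against clone19 Irf9 was higher (log2 fold change 0.37, SE 0.14, adjusted p = 0.0197), with adjusted p = 0.108 without Rec replicate 5 and 0.0678 without clone19 replicate 5 (range over the alternatives 0.0079 to 0.108).

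Irf1, which activates antigen presentation genes, was lower in all 3 lines than in Fh1_fl_fl, and Irf2, known as its antagonist, was lower in Rec. Irf1 had 23.9, 23.99, 22.99, 23.9 and 25.7 CPM in Rec. It had 22.01, 20.3, 26.6, 25.2 and 19.6 CPM in clone1 and 20.4, 20.04, 19.1, 20.3 and 19.7 CPM in clone19, against 35.8, 35.6, 34.3, 32.8 and 41.1 CPM in Fh1_fl_fl. Every Fh1_fl_fl library was above every other library. Irf1 fell in Rec (log2 fold change -0.57, SE 0.078, adjusted p = 3e-07), in clone1 (log2 fold change -0.67, SE 0.080, adjusted p = 2.3e-08) and in clone19 (log2 fold change -0.85, SE 0.083, adjusted p = 6.31e-10), each against Fh1_fl_fl. Irf2 had 35.1, 35.6, 34.9, 33.2 and 35.5 CPM in Rec. In clone1 it had 48.9, 51.4, 48.97, 54.7 and 51.5 CPM and in clone19 40.6, 44, 34.8, 41.9 and 42.7 CPM, against 42.2, 47.9, 43.5, 47.5 and 49.6 CPM in Fh1_fl_fl. Both clones overlapped Fh1_fl_fl, and Rec lay below clone1 and Fh1_fl_fl. Irf2 fell in Rec against Fh1_fl_fl (log2 fold change -0.40, SE 0.065, adjusted p = 4.21e-06). The differences of the clones from Fh1_fl_fl were small and held in some settings only. In clone1 Irf2 had a log2 fold change of 0.15 (adjusted p = 0.0383), with adjusted p = 0.0627 without clone1 replicate 2 and 0.0951 without clone1 replicate 4, 0.182 without the count filter and 0.952 with library totals (range over the alternatives 0.0068 to 0.952). In clone19 it had -0.17 (adjusted p = 0.0236), with adjusted p = 0.0879 without Fh1_fl_fl replicate 5, 0.0554 without clone19 replicate 1 and 0.12 without clone19 replicate 3 (range over the alternatives 0.00119 to 0.12).

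Irf3, the factor activated by the sensing adaptors, was lower in all 3 lines than in Fh1_fl_fl. It had 17.3, 24.2, 21.5, 19.8 and 20.96 CPM in Rec. In clone1 Irf3 had 14.8, 11.1, 12.4, 14.5 and 11.02 CPM and in clone19 14.9, 16.4, 15.6, 16.4 and 17.7 CPM, against 29.9, 28.04, 29.5, 27.5 and 33.3 CPM in Fh1_fl_fl. The order was clone1 lowest, then clone19, Rec and Fh1_fl_fl, and only Rec and clone19 overlapped. Irf3 fell in Rec (log2 fold change -0.52, SE 0.089, adjusted p = 1.19e-05), in clone1 (log2 fold change -1.23, SE 0.10, adjusted p = 6.22e-12) and in clone19 (log2 fold change -0.87, SE 0.10, adjusted p = 6.89e-09), past 2-fold in clone1 (adjusted p = 0.0162 against the bound). Irf7, which amplifies the response once induced, was near the detection floor, with 0.374, 0.0983, 0.245, 0.235 and 0.174 CPM in Rec. It had 1.49, 1.55, 0.9904, 0.611 and 0.694 CPM in clone1 and 0.995, 0.576, 0.175, 0.295 and 0.614 CPM in clone19, against 0.882, 0.831, 1.22, 0.502 and 0.576 CPM in Fh1_fl_fl, where 3 counts corresponded to 0.147 to 0.525 CPM depending on the library. Rec lay below clone1 and Fh1_fl_fl without overlap, and the other pairs overlapped. Irf7 fell in Rec against clone1 (log2 fold change -2.24, SE 0.43, adjusted p = 3.2e-05) and against Fh1_fl_fl (log2 fold change -1.80, SE 0.43, adjusted p = 0.000543). In Rec against clone19 its log2 fold change was -1.20 (adjusted p = 0.0404), with adjusted p = 0.0863 without Rec replicate 2, 0.0537 without Rec replicate 3, 0.0546 without Rec replicate 4, 0.0907 without Rec replicate 5, 0.129 without clone19 replicate 1, 0.0708 without clone19 replicate 2 and 0.0861 without clone19 replicate 5, and 0.0867 without the count filter (range over the alternatives 0.0239 to 0.129). Irf3 overlaps Bcl2l12 and Irf7 overlaps Phrf1 on the opposite strand, and the strand setting of the counting is not given in the sources used here.

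**Figure D3:**
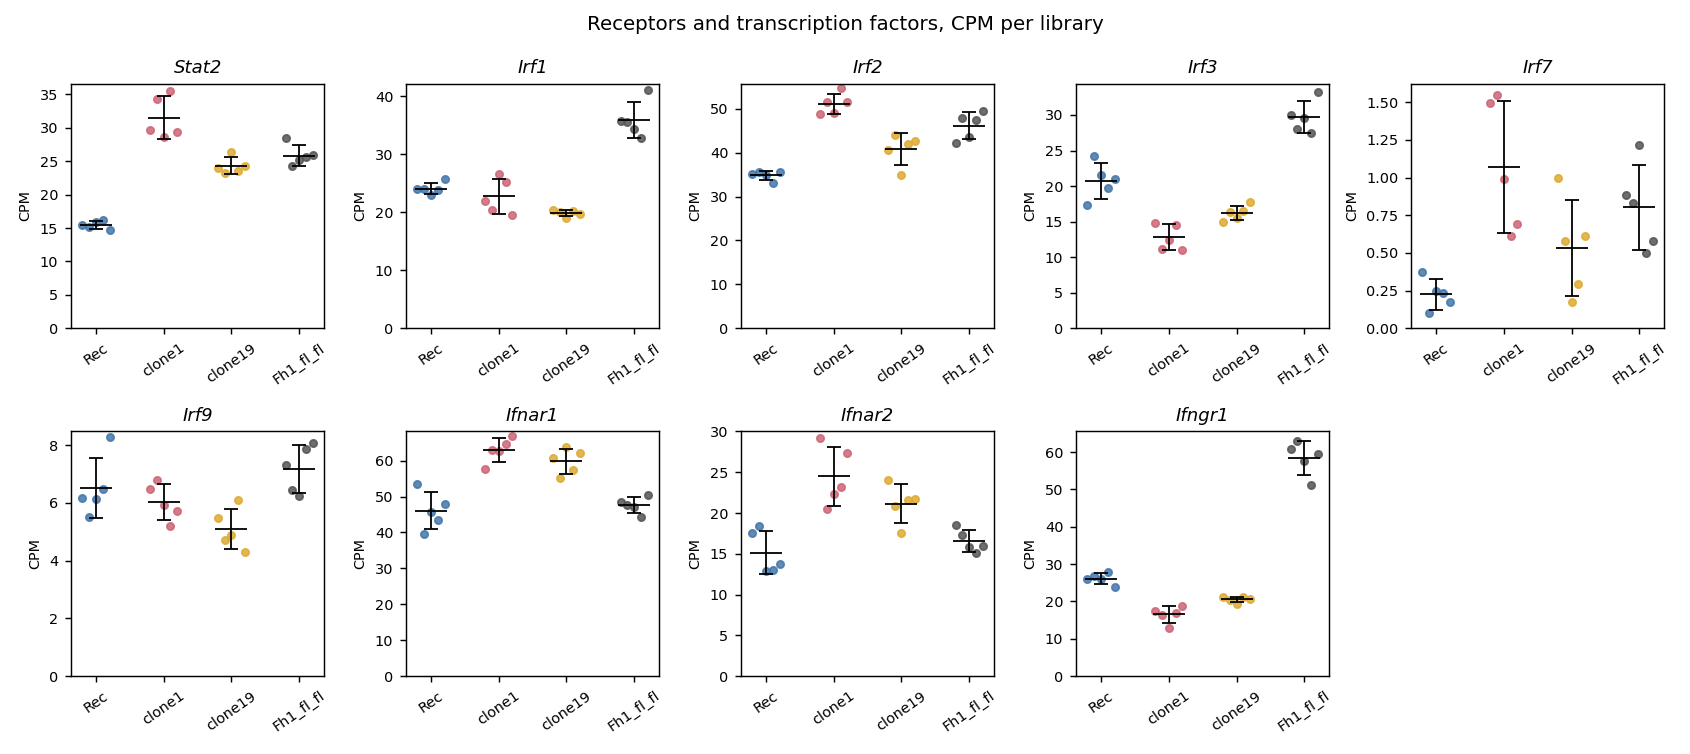
CPM of the 3 receptor chains and 6 transcription factors in each library, with groups on the horizontal axis, points for the 5 libraries of each group, and black bars for the mean and SD. Ifngr1, Irf1 and Irf3 are highest in the 5 Fh1_fl_fl libraries, and Stat2 is lowest in the 5 Rec libraries.

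Of the 8 listed RNA and DNA sensors, adaptors and ubiquitin ligases of these pathways, 6 fell in Rec (background 37.4%), 6 in clone1 (40.5%) and 6 in clone19 (36.1%), each against Fh1_fl_fl. Dhx58 rose in Rec and Mavs rose in clone1. Tlr3, the endosomal sensor of double-stranded RNA, averaged 48.3 ± 7.05 CPM in Rec, 19.98 ± 3.23 CPM in clone1 and 27.4 ± 1.47 CPM in clone19, against 88.9 ± 5.07 CPM in Fh1_fl_fl, with no overlap between any groups. It fell in Rec (log2 fold change -0.88, SE 0.089, adjusted p = 1.51e-09) and over 2-fold in clone1 (log2 fold change -2.15, SE 0.10, adjusted p = 5.03e-17) and clone19 (log2 fold change -1.70, SE 0.10, adjusted p = 9.94e-15). Ddx58 averaged 14.96 ± 1.47 CPM in Rec, 24.4 ± 1.598 CPM in clone1 and 29.3 ± 2.59 CPM in clone19, against 34.7 ± 3.14 CPM in Fh1_fl_fl. Ddx58 fell most in Rec (log2 fold change -1.21, SE 0.083, adjusted p = 7.8e-13), where the libraries lay below all others, and by less in clone1 (log2 fold change -0.51, adjusted p = 2.73e-06) and clone19 (-0.25, adjusted p = 0.00792). Ifih1 averaged 5.13 ± 0.67 CPM in Rec, 4.65 ± 1.42 CPM in clone1 and 4.25 ± 1.02 CPM in clone19, against 8.25 ± 0.863 CPM in Fh1_fl_fl, and fell in each of the 3 (log2 fold changes -0.69 in Rec, -0.82 in clone1 and -0.99 in clone19). Dhx58, a regulator of RIG-I and MDA5 signalling, averaged 1.44 ± 0.207 CPM in Rec, 0.374 ± 0.3204 CPM in clone1 and 0.352 ± 0.231 CPM in clone19, against 0.397 ± 0.232 CPM in Fh1_fl_fl. All 5 Rec libraries were above every other library. Dhx58 rose in Rec against Fh1_fl_fl (log2 fold change 1.76, SE 0.37, adjusted p = 0.000151), with 83 counts in the 5 Rec libraries and 29 in the 5 Fh1_fl_fl libraries. The lowest Rec library had 1.23 CPM of Dhx58, and the highest library outside Rec, in clone1, had 0.872 CPM. The gene thus passed the count filter through the Rec libraries, where it is high. Its p-value and its place among the genes higher in Rec therefore give no separate support.

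Mavs, the mitochondrial adaptor of both RNA sensors, averaged 50.5 ± 2.42 CPM in Rec, 103 ± 2.44 CPM in clone1 and 61.9 ± 4.88 CPM in clone19, against 77.8 ± 2.795 CPM in Fh1_fl_fl, and no 2 groups overlapped. The clones went in opposite directions, with a rise in clone1 (log2 fold change 0.40, SE 0.056, adjusted p = 3.19e-07) and a fall in clone19 (log2 fold change -0.33, SE 0.058, adjusted p = 1.33e-05). Mavs also fell in Rec (log2 fold change -0.62, SE 0.057, adjusted p = 2.97e-10). Tmem173, which encodes STING, averaged 2.503 ± 0.4703 CPM in Rec, 2.91 ± 0.377 CPM in clone1 and 7.398 ± 1.25 CPM in clone19, against 8.35 ± 0.836 CPM in Fh1_fl_fl. It was over 2-fold lower in Rec (log2 fold change -1.76, SE 0.14, adjusted p = 2.24e-11) and in clone1 (log2 fold change -1.51, SE 0.14, adjusted p = 3.26e-10), while clone19 overlapped Fh1_fl_fl (log2 fold change -0.17, SE 0.13, adjusted p = 0.231). With library totals the adjusted p of Tmem173 in clone19 was 0.0494 (range over the alternatives 0.0494 to 0.514). Trim25, a ubiquitin ligase of the RIG-I pathway, averaged 70.3 ± 1.28 CPM in Rec, 73.8 ± 4.65 CPM in clone1 and 69.6 ± 6.21 CPM in clone19, against 101 ± 3.19 CPM in Fh1_fl_fl, and fell by similar log2 amounts in Rec (-0.52), clone1 (-0.45) and clone19 (-0.54). Rnf213, a very large ubiquitin ligase, averaged 154 ± 26.4 CPM in Rec, 77.99 ± 17.3 CPM in clone1 and 85.2 ± 19.2 CPM in clone19, against 168 ± 19.5 CPM in Fh1_fl_fl. It fell in clone1 (log2 fold change -1.11, SE 0.15, adjusted p = 1.43e-07) and clone19 (log2 fold change -0.98, SE 0.15, adjusted p = 1.37e-06), and Rec overlapped Fh1_fl_fl (log2 fold change -0.13, SE 0.14, adjusted p = 0.423).

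Slfn9 (ENSMUSG00000069793, chr11:82978390-82991830 in GRCm38), of the schlafen family of growth and antiviral regulators, showed the largest fold difference of any tested gene of the list between a clone and Fh1_fl_fl. It had 16.3, 12.4, 13.7, 13.9 and 16.1 CPM in Rec. It had 0.697, 0.484, 0.9904, 0.763 and 0.954 CPM in clone1 and 0.166, 1.15, 1.58, 0.984 and 1.33 CPM in clone19, against 14.99, 14.2, 12.1, 13.8 and 14.3 CPM in Fh1_fl_fl. The 10 clone libraries lay far below the other 10, and Rec overlapped Fh1_fl_fl. Slfn9 fell in clone1 (log2 fold change -4.14, SE 0.19, adjusted p = 8.84e-17) and clone19 (log2 fold change -3.70, SE 0.19, adjusted p = 1.38e-15), and it was higher in Rec than in clone1 (log2 fold change 4.20, SE 0.19, adjusted p = 7.19e-17) and clone19 (log2 fold change 3.76, SE 0.19, adjusted p = 1.16e-15). The log2 fold change of Rec against Fh1_fl_fl was 0.062 (SE 0.12, adjusted p = 0.648). The schlafen genes include near-identical copies, so counts given to Slfn9 are uncertain.

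Parp14, Parp9 and Dtx3l lie in 1 stretch of chromosome 16 (GRCm38) and were lower in both clones. Parp14 (ENSMUSG00000034422, chr16:35832874-35871544), an ADP-ribosyltransferase, had 8.51, 5.604, 6.95, 5.296 and 9.38 CPM in Rec. It had 1.69, 1.94, 2.64, 3.36 and 2.26 CPM in clone1 and 5.31, 4.15, 3.68, 5.12 and 4.504 CPM in clone19, against 20.9, 20.6, 17.6, 19.6 and 19.7 CPM in Fh1_fl_fl. Fh1_fl_fl lay above all other libraries, and the lowest Rec library was just below the highest clone19 library. Parp14 fell in Rec (log2 fold change -1.43, SE 0.13, adjusted p = 1.63e-10), clone1 (log2 fold change -3.09, SE 0.16, adjusted p = 9.52e-16) and clone19 (log2 fold change -2.10, SE 0.15, adjusted p = 8.77e-13), over 2-fold in each. Dtx3l (ENSMUSG00000049502, chr16:35926511-35939151), a ubiquitin ligase that works with PARP9, had 22.1, 19.8, 16.2, 19.3 and 21.5 CPM in Rec. In clone1 it had 7.37, 10.95, 10.3, 10.7 and 13.1 CPM and in clone19 7.47, 5.41, 6.3, 6.69 and 7.68 CPM, against 36.8, 35.9, 40.8, 37.3 and 41.6 CPM in Fh1_fl_fl. Rec lay between the clones and Fh1_fl_fl with no overlap, and the clones overlapped each other. Dtx3l fell in Rec (log2 fold change -0.96, SE 0.10, adjusted p = 3.34e-09), clone1 (log2 fold change -1.87, SE 0.11, adjusted p = 1.56e-14) and clone19 (log2 fold change -2.52, SE 0.12, adjusted p = 3.83e-16). Parp9 averaged 26.5 ± 2.88 CPM in Rec, 14.4 ± 0.724 CPM in clone1 and 12.3 ± 0.651 CPM in clone19, against 38.6 ± 1.97 CPM in Fh1_fl_fl, and fell in Rec (log2 fold change -0.55, SE 0.071, adjusted p = 1.26e-07), clone1 (log2 fold change -1.42, SE 0.077, adjusted p = 2.16e-15) and clone19 (log2 fold change -1.65, SE 0.080, adjusted p = 4.3e-16). Parp9 and Dtx3l overlap on opposite strands with start sites 681 bases apart, so reads of the overlap cannot be told apart without strand. Parp12, a related enzyme elsewhere in the genome, averaged 10.6 ± 1.59 CPM in Rec, 27.5 ± 2.16 CPM in clone1 and 15.1 ± 1.297 CPM in clone19, against 24.9 ± 0.624 CPM in Fh1_fl_fl. It fell in Rec (log2 fold change -1.23, SE 0.089, adjusted p = 2.39e-12) and clone19 (log2 fold change -0.73, SE 0.090, adjusted p = 4.65e-08). In clone1, which did not overlap Fh1_fl_fl, Parp12 had a log2 fold change of 0.15 (adjusted p = 0.108). The adjusted p was 0.0466 with RLE factors, 0.0334 with DESeq2 and 0.0483 in a fit of only these groups. It was 0.0434 without Fh1_fl_fl replicate 3 and 0.0437 without clone1 replicate 5 (range over the alternatives 0.0334 to 0.974).

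Usp18 (ENSMUSG00000030107, chr6:121245906-121270917), which removes ISG15 and damps the interferon receptor, was at low counts. It had 0.654, 0.885, 1.47, 0.824 and 1.16 CPM in Rec. Its levels were 0.697, 0.678, 0.8804, 0.153 and 0.2603 CPM in clone1 and 3.32, 1.27, 0.875, 2.07 and 1.02 CPM in clone19, against 2.99, 3.32, 3.24, 3.23 and 2.31 CPM in Fh1_fl_fl. Rec and clone1 lay below Fh1_fl_fl, and clone19 overlapped every other group. Usp18 fell in Rec (log2 fold change -1.53, SE 0.27, adjusted p = 1.84e-05) and clone19 (log2 fold change -0.84, SE 0.27, adjusted p = 0.00757) and over 2-fold in clone1 (log2 fold change -2.43, SE 0.33, adjusted p = 1.88e-07). In Rec against clone1 its log2 fold change was 0.90 (adjusted p = 0.044), with adjusted p = 0.0504 without Rec replicate 2, 0.124 without Rec replicate 3, 0.104 without Rec replicate 5, 0.098 without clone1 replicate 4 and 0.148 without clone1 replicate 5, and 0.0516 with RLE factors (range over the alternatives 0.0243 to 0.148).

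**Figure D4:**
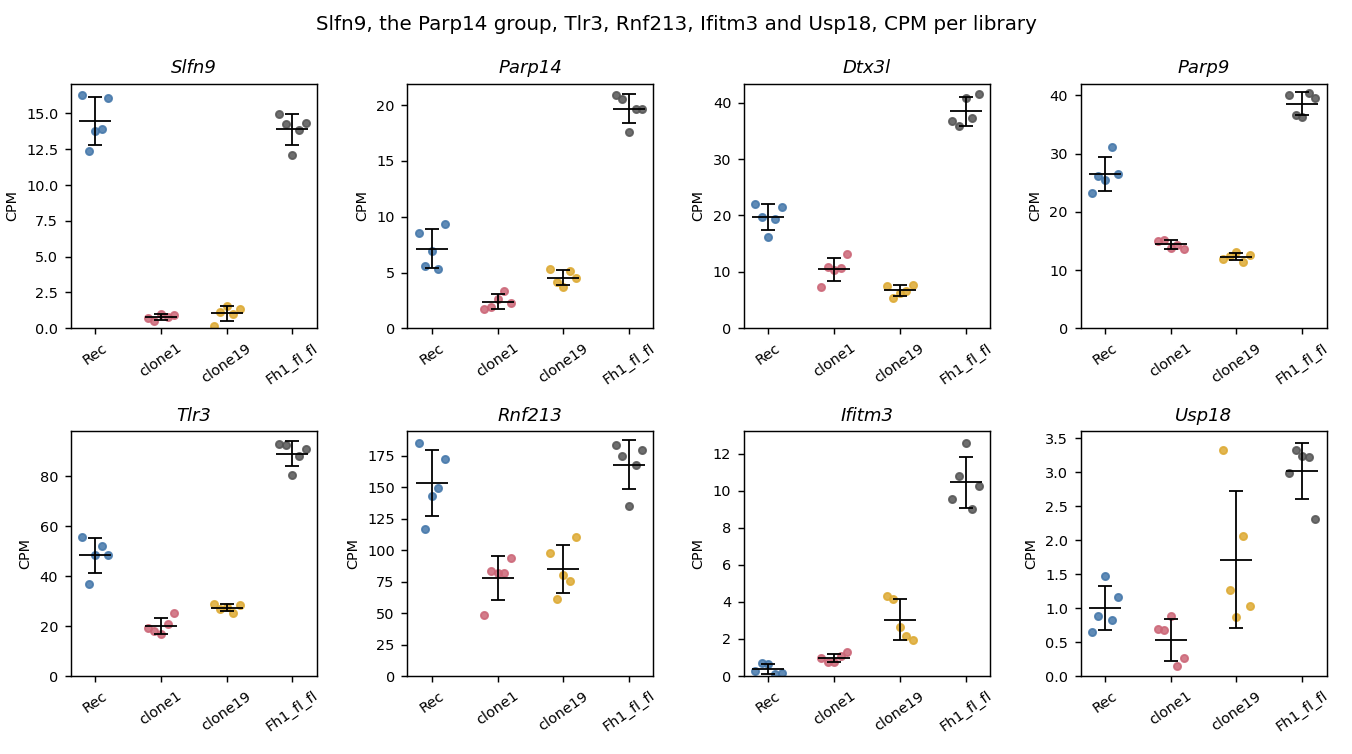
CPM of 8 genes in each library, with groups on the horizontal axis, points for the 5 libraries of each group, and black bars for the mean and SD. Slfn9 averages 0.778 CPM in clone1 and 1.04 CPM in clone19, while Rec and Fh1_fl_fl lie near 14 CPM, and Parp14, Dtx3l, Parp9 and Tlr3 in Rec lie between the clones and Fh1_fl_fl.

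Among the virus-restricting effectors, the transmembrane genes went in different directions. Ifitm3 (ENSMUSG00000025492, chr7:141009586-141010770) had 0.281, 0.688, 0.654, 0.118 and 0.174 CPM in Rec. It had 0.996, 0.775, 0.7703, 1.07 and 1.302 CPM in clone1 and 4.31, 4.15, 2.63, 2.17 and 1.95 CPM in clone19, against 9.56, 10.8, 12.6, 9.03 and 10.2 CPM in Fh1_fl_fl. The order was Rec lowest, then clone1, clone19 and Fh1_fl_fl, with no overlap between any groups. Ifitm3 fell over 2-fold in Rec (log2 fold change -4.75, SE 0.26, adjusted p = 9.65e-15), clone1 (log2 fold change -3.38, SE 0.23, adjusted p = 3.5e-13) and clone19 (log2 fold change -1.81, SE 0.20, adjusted p = 5.25e-09). Ifitm2 averaged 67.5 ± 6.09 CPM in Rec, 91.99 ± 11.5 CPM in clone1 and 54.1 ± 3.84 CPM in clone19, against 60.6 ± 4.86 CPM in Fh1_fl_fl. It rose in clone1 (log2 fold change 0.60, SE 0.079, adjusted p = 1.16e-07). In clone19 Ifitm2 had a log2 fold change of -0.16 (adjusted p = 0.072), with adjusted p = 0.00249 with library totals and 0.0309 without the count filter. It was 0.0454 in a fit of only these groups, 0.0316 without Fh1_fl_fl replicate 2 and 0.0402 without clone19 replicate 4 (range over the alternatives 0.00249 to 0.231). In Rec the log2 fold change was 0.15 (adjusted p = 0.091, range over the alternatives 0.03 to 0.846). Bst2, which tethers virus particles to the cell, averaged 26.4 ± 1.93 CPM in Rec, 33.6 ± 4.66 CPM in clone1 and 22.2 ± 1.51 CPM in clone19, against 20.6 ± 2.28 CPM in Fh1_fl_fl. Bst2 rose in Rec (log2 fold change 0.36, SE 0.089, adjusted p = 0.000813) and clone1 (log2 fold change 0.71, SE 0.089, adjusted p = 4.94e-08). The Ifitm genes are related copies, and whether reads were shared among them was not tested, so their counts are uncertain.

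Ifit3 (ENSMUSG00000074896, chr19:34583531-34588731), which binds other IFIT proteins on viral RNA, was the only tested gene of the list over 2-fold higher in clone1 than in Fh1_fl_fl. It had 0.841, 0, 0.491, 0.235 and 0.463 CPM in Rec. In clone1 it had 21.7, 15.8, 19.2, 16.8 and 21.9 CPM and in clone19 6.304, 7.49, 7, 5.02 and 6.96 CPM, against 4.36, 3.22, 4.22, 4.09 and 3.89 CPM in Fh1_fl_fl. No 2 groups overlapped, and the order was clone1, clone19, Fh1_fl_fl and Rec. Ifit3 rose in clone1 (log2 fold change 2.25, SE 0.15, adjusted p = 2.89e-13) and clone19 (log2 fold change 0.70, SE 0.18, adjusted p = 0.000943), and fell in Rec against clone1 (log2 fold change -5.46, SE 0.23, adjusted p = 1.09e-17), clone19 (log2 fold change -3.91, SE 0.27, adjusted p = 8.9e-13) and Fh1_fl_fl (log2 fold change -3.20, SE 0.28, adjusted p = 9.5e-11). Its neighbour Ifit2, 7112 bases away on chromosome 19 and of the same family, averaged 40.2 ± 3.91 CPM in Rec, 111 ± 10.4 CPM in clone1 and 90.1 ± 1.73 CPM in clone19, against 111 ± 5.503 CPM in Fh1_fl_fl. Ifit2 fell over 2-fold in Rec (log2 fold change -1.47, SE 0.070, adjusted p = 3.67e-16) and by less in clone19 (log2 fold change -0.31, SE 0.068, adjusted p = 0.00023), and clone1 overlapped Fh1_fl_fl (log2 fold change -0.0051). Ifit3 has a near-identical copy, Ifit3b, so its count is uncertain.

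The genes that bring peptides to class I molecules were highest in clone19 and lowest in Rec for 3 of the 5 tested. Tap1 (ENSMUSG00000037321, chr17:34187553-34197225), a chain of the peptide transporter, had 0.561, 0, 0.327, 0.353 and 0.347 CPM in Rec. It had 1.49, 1.36, 1.1, 0.611 and 1.48 CPM in clone1 and 2.32, 2.88, 3.5, 3.64 and 3.48 CPM in clone19, against 0.637, 1.14, 0.405, 0.573 and 0.288 CPM in Fh1_fl_fl. Clone19 lay above all other libraries, and Fh1_fl_fl overlapped Rec and clone1. Tap1 rose in clone1 (log2 fold change 1.08, SE 0.34, adjusted p = 0.00564) and over 2-fold in clone19 (log2 fold change 2.43, SE 0.29, adjusted p = 4.09e-08), and it fell in Rec against clone1 (log2 fold change -1.92, SE 0.40, adjusted p = 1e-04) and clone19 (log2 fold change -3.27, SE 0.34, adjusted p = 2.67e-09). Tap2 (ENSMUSG00000024339, chr17:34203527-34216321), the other chain, had 0.0935, 0.295, 0.245, 0 and 0.174 CPM in Rec. In clone1 it had 2.79, 4.17, 2.201, 1.99 and 3.64 CPM and in clone19 9.95, 5.65, 9.45, 7.77 and 10.4 CPM, against 1.47, 2.39, 0.892, 0.8599 and 1.08 CPM in Fh1_fl_fl. Rec lay below every other library, clone19 above every other library, and clone1 overlapped Fh1_fl_fl. Tap2 rose in clone1 (log2 fold change 1.22, SE 0.27, adjusted p = 0.000255) and over 2-fold in clone19 (log2 fold change 2.71, SE 0.24, adjusted p = 1.28e-10), and fell over 2-fold in Rec against clone1 (log2 fold change -4.07, SE 0.42, adjusted p = 1.49e-09), clone19 (log2 fold change -5.57, SE 0.36, adjusted p = 1.62e-13) and Fh1_fl_fl (log2 fold change -2.86, SE 0.47, adjusted p = 6.66e-06).

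B2m averaged 146 ± 8.04 CPM in Rec, 237 ± 32.01 CPM in clone1 and 407 ± 40.5 CPM in clone19, against 228 ± 8.73 CPM in Fh1_fl_fl. It rose in clone19 (log2 fold change 0.84, SE 0.076, adjusted p = 1.51e-10) and fell in Rec (log2 fold change -0.64, SE 0.076, adjusted p = 3.19e-08), and clone1 overlapped Fh1_fl_fl. Psmb10, an immunoproteasome subunit, averaged 15.7 ± 2.56 CPM in Rec, 12.3 ± 2.23 CPM in clone1 and 17.9 ± 1.72 CPM in clone19, against 7.92 ± 1.08 CPM in Fh1_fl_fl. All libraries of the 3 other groups were above every Fh1_fl_fl library, and Psmb10 rose in Rec (log2 fold change 0.97, SE 0.13, adjusted p = 2.03e-07), clone1 (log2 fold change 0.63, SE 0.14, adjusted p = 0.000159) and clone19 (log2 fold change 1.17, SE 0.13, adjusted p = 1.1e-08). Tapbp, the tapasin chaperone that holds class I molecules at the transporter, averaged 37.4 ± 2.89 CPM in Rec, 75.4 ± 13.2 CPM in clone1 and 68.9 ± 3.596 CPM in clone19, against 86.5 ± 6.31 CPM in Fh1_fl_fl. Tapbp fell over 2-fold in Rec (log2 fold change -1.21, SE 0.089, adjusted p = 3.36e-12) and by less in clone19 (log2 fold change -0.33, SE 0.087, adjusted p = 0.00153). In clone1 its log2 fold change was -0.19 (adjusted p = 0.0418), with adjusted p = 0.0964 with DESeq2, 0.0884 with RLE factors and 0.0798 in a fit of only these groups, and 0.219 without Fh1_fl_fl replicate 1, 0.0574 without Fh1_fl_fl replicate 2, 0.18 without Fh1_fl_fl replicate 3, 0.134 without Fh1_fl_fl replicate 5, 0.131 without clone1 replicate 2, 0.165 without clone1 replicate 3 and 0.0901 without clone1 replicate 4 (range over the alternatives 0.000769 to 0.219). Tap1 overlaps Psmb9, and B2m overlaps Patl2, on the opposite strand.

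**Figure D5:**
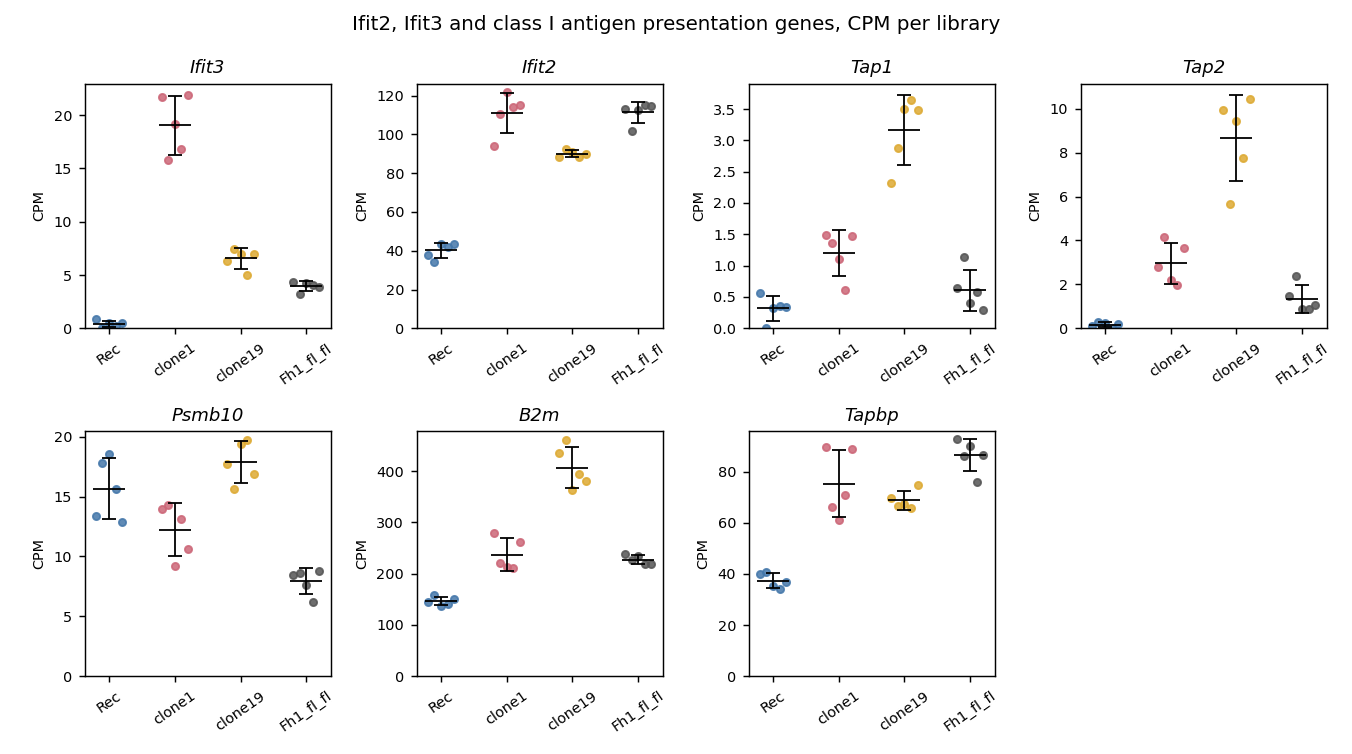
CPM of Ifit3, Ifit2 and 5 class I presentation genes in each library, with groups on the horizontal axis, points for the 5 libraries of each group, and black bars for the mean and SD. Ifit3 is highest in the 5 clone1 libraries, Tap1, Tap2 and B2m are highest in the 5 clone19 libraries, and Ifit2, Tapbp and B2m are lowest in the 5 Rec libraries.

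Among the 13 genes below the count filter, 5 had more than 20 counts in the 5 libraries of at least 1 group. Ratios between groups are given with exact binomial intervals, which cover counting error only. Mx1, of a family of antiviral GTPases, had 1 count in Rec, 56 in clone1 and 1 in clone19, against 2 in Fh1_fl_fl. All 5 clone1 libraries had at least 1 count of Mx1 each, and whether its transcript makes a working protein in these cells was not tested. Scaled to library size, its ratio of clone1 to Fh1_fl_fl was 41.4 (95% interval 10.9 to 349.9). Slfn2 had 1 count in Rec, 11 in clone1 and 4 in clone19, against 74 in Fh1_fl_fl. Its ratio to Fh1_fl_fl was 0.0161 in Rec (95% interval 0.000403 to 0.0926), 0.2196 in clone1 (0.105 to 0.416) and 0.094 in clone19 (0.025 to 0.251). Psmb9, an immunoproteasome subunit next to Tap1, had 0 counts in Rec, 7 in clone1 and 23 in clone19, against 4 in Fh1_fl_fl. Xaf1, a promoter of cell death, had 21 counts in Rec, 39 in clone1 and 27 in clone19, against 16 in Fh1_fl_fl. The ratio of Xaf1 to Fh1_fl_fl was 1.57 in Rec (95% interval 0.778 to 3.21), 3.601 in clone1 (1.97 to 6.902) and 2.94 in clone19 (1.53 to 5.83). Ifit1 had 5 counts in Rec, 21 in clone1 and 32 in clone19, against 39 in Fh1_fl_fl. The remaining 8 (Ifitm1, Isg15, Mx2, Rsad2, Gbp2, Gbp3, Gbp7 and Psmb8) had 0 to 17 counts in the 5 libraries of any group. Isg15, the ubiquitin-like modifier that USP18 removes, had 3 counts in Rec, 10 in clone1 and 7 in clone19, against 17 in Fh1_fl_fl, and Rsad2, known as viperin, had 12 counts in Rec, 15 in clone1 and 12 in clone19, against 17 in Fh1_fl_fl.

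A further 121 genes of the same pathways were listed, of which 116 were matched and 69 tested. In clone1 against Fh1_fl_fl, 27 were higher (background 38%) and 33 lower (40.5%), with 10 over 2-fold higher (10.9%) and 11 over 2-fold lower (10.9%). In clone19 against Fh1_fl_fl, 29 were higher (36.8%) and 21 lower (36.1%), with 14 over 2-fold higher (8.2%) and 5 over 2-fold lower (7.28%). In clone19, unlike among the 33, more of these genes were over 2-fold higher than over 2-fold lower. In Rec against clone1, 19 were higher (39.7%) and 36 lower (38.1%), and in Rec against clone19, 11 were higher (35.8%) and 41 lower (38%). In Rec against Fh1_fl_fl, 14 were higher (33.4%) and 38 lower (37.4%). Among the 16 further sensing genes tested, 5 were higher and 9 lower in clone19, and the 4 over 2-fold higher there were Aim2, Nlrc5, Ifi204 and Ifi203, of which the first 3 are named after their values were seen. Aim2, a sensor of DNA in the cytosol, averaged 0.493 ± 0.2098 CPM in Rec, 1.44 ± 0.56 CPM in clone1 and 12.9 ± 3.06 CPM in clone19, against 0.786 ± 0.5201 CPM in Fh1_fl_fl. Nlrc5, known as an activator of class I genes, averaged 0 CPM in Rec, 0.0367 ± 0.0504 CPM in clone1 and 3.26 ± 0.675 CPM in clone19, against 0.0818 ± 0.1195 CPM in Fh1_fl_fl. Both means were highest in clone19. Nlrc5 was near 0 CPM in the other groups, so it passed the count filter through the clone19 libraries. Its place among the 4 genes over 2-fold higher in clone19 therefore gives no separate support. The genes of the interferons themselves gave almost no reads. Of 10 ligand genes matched, 7 had 0 counts in every library, Ifnb1 had 1 count in clone1, Ifne had 1 in Fh1_fl_fl, and Ifng had 7 counts in Rec, 1 in clone1 and 1 in clone19, against 3 in Fh1_fl_fl.

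Of the 12 further genes over 2-fold in both clones in the same direction, the 8 ranked first by the smaller of their changes were Irf8, Lgals3bp, H2-M3, Ifi203 and H2-DMb1, which rose, and H2-T23, Irgm2 and Tlr2, which fell. Irf8, an interferon regulatory factor known from myeloid cells, averaged 13.8 ± 1.26 CPM in Rec, 38.9 ± 2.73 CPM in clone1 and 53.04 ± 3.54 CPM in clone19, against 6.62 ± 1.07 CPM in Fh1_fl_fl. On the log2 scale Irf8 rose by 2.57 in clone1 and by 3.01 in clone19. Lgals3bp, a secreted glycoprotein, averaged 0.272 ± 0.113 CPM in Rec, 17.8 ± 4.47 CPM in clone1 and 21.3 ± 2.9 CPM in clone19, against 3.03 ± 0.882 CPM in Fh1_fl_fl. Its mean was thus highest in clone19 and lowest in Rec. H2-M3, a non-classical class I molecule, averaged 3.83 ± 0.755 CPM in Rec, 19.8 ± 2.39 CPM in clone1 and 16.8 ± 1.61 CPM in clone19, against 3.56 ± 0.403 CPM in Fh1_fl_fl. Ifi203, of the DNA-binding IFI200 family, averaged 6.17 ± 1.11 CPM in Rec, 31.3 ± 3.61 CPM in clone1 and 8.097 ± 1.31 CPM in clone19, against 1.91 ± 0.623 CPM in Fh1_fl_fl. The mean of Ifi203 was highest in clone1, whereas H2-M3 was high in both clones. H2-T23, another non-classical class I molecule, averaged 0.553 ± 0.309 CPM in Rec, 0.208 ± 0.173 CPM in clone1 and 0.342 ± 0.0953 CPM in clone19, against 3.37 ± 0.568 CPM in Fh1_fl_fl. Irgm2, an immunity-related GTPase, averaged 0.913 ± 0.164 CPM in Rec, 0.838 ± 0.325 CPM in clone1 and 1.94 ± 0.525 CPM in clone19, against 7.201 ± 1.51 CPM in Fh1_fl_fl. Tlr2, a surface receptor for bacterial lipoproteins, averaged 9.44 ± 1.37 CPM in Rec, 4.21 ± 0.826 CPM in clone1 and 5.18 ± 0.662 CPM in clone19, against 17.2 ± 2.87 CPM in Fh1_fl_fl. H2-T23, Irgm2 and Tlr2 each had their highest mean in Fh1_fl_fl. H2-DMb1, a chain of the peptide editor of class II molecules, averaged 4.03 ± 0.545 CPM in Rec, 24.99 ± 4.59 CPM in clone1 and 33.3 ± 2.94 CPM in clone19, against 6.51 ± 0.867 CPM in Fh1_fl_fl. The 3 tested of the 8 class II genes rose in both clones (background 38% in clone1 and 36.8% in clone19), while the other 5, among them the chains H2-Aa and H2-Eb1, had 0 to 24 counts in the 5 libraries of any group.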

How the data were processed

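The sample titles gave the group and replicate number of each library, 5 in each group. The authors deposited counts: whole-number reads per Ensembl gene for each library, not normalized, followed by 5 summary lines. Of all reads in a file, 28.8% to 40.3% were given as not unique, 3.28% to 6.73% as in no feature and 0.462% to 0.653% as ambiguous, none of which entered the tests. The submitters' processing notes name GRCm38 as the build and list DESeq 1.10.1, HTSeq 0.5.3p9 and TopHat2 2.0.4. What each did, and with which annotation and strand setting, is not given in the sources used here.

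From the deposited counts, genes were filtered with filterByExpr, scaled with TMM factors (0.898 to 1.08) and tested in 1 model of 20 libraries with a mean for each group, using edgeR 4.0.16 in R 4.3.3 (glmQLFTest, and glmTreat against a log2 bound of 1), with Benjamini-Hochberg adjustment over 12671 genes and a threshold of 0.05. DESeq2 1.42.0, RLE factors, library totals, no filter, a filter of CPM of at least 1 in 5 libraries, fits of only the groups compared, a replicate block and fits without each library were the alternatives. CPM values use the TMM-scaled library sizes, and 3 counts correspond to 0.147 to 0.525 CPM; floors and intervals cover counting error only. Replicate pairs differed by more than sampling noise, with a chi-square per degree of freedom of 2.04 or more and 0 identical pairs. Fold changes are the first group named over the second.

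Every library is given for the 5 largest changes among listed genes over 2-fold in each clone against Fh1_fl_fl and in Rec against each clone, and for 6 transcription factors and the type I receptor chains; other listed genes are given by mean and SD or by counts. Further pathway genes were named by rank, at most 8, and for the ligands. The listed genes, further lists and markers were chosen with earlier results of these data known. Gene positions and exon lengths come from GENCODE on GRCm38, and symbols, found for 37607 of the 39179 genes, from a table of Ensembl IDs. Promoter windows come from RefSeq. Figures were drawn with matplotlib 3.10.9 in Python 3.11.15.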

Additional observations from a re-analysis of the deposited data

Results flagged for a closer look

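In 5 of the 132 sets of 5 libraries (33 tested genes in 4 groups), 1 library lay far from the other 4; chance gives about 1 in 20 such sets. Irf2 had 33.2 CPM in Rec replicate 4, with 34.9 to 35.6 CPM in the other Rec libraries. Parp12 had 31.3 CPM in clone1 replicate 1, with 26.2 to 27.4 CPM in the others. The same library had 41.8 CPM of Bst2, with 30.8 to 32.4 CPM in the others, and 48.3 CPM of Rnf213, with 82.1 to 93.8 CPM in the others. Ifit2 had 101.7 CPM in Fh1_fl_fl replicate 2, with 112.4 to 115 CPM in the others.

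For 23 of the 33 tested genes the change against Fh1_fl_fl differed between the clones, by the edgeR quasi-likelihood test of clone1 minus clone19 (background 31.6% higher and 33.5% lower over all tested genes). Each value here is that difference on the log2 scale. The change in clone1 was above that in clone19 for Ifit3 (1.55), Irf7 (1.05), Parp12 (0.88), Ifitm2 (0.77), Mavs (0.73), Dtx3l (0.65), Bst2 (0.60), Stat2 (0.37), Irf2 (0.32), Ifit2 (0.30) and Parp9 (0.23). It was below for Usp18 (-1.59), Ifitm3 (-1.57), Tap2 (-1.50), Tap1 (-1.35), Tmem173 (-1.34), Parp14 (-0.98), B2m (-0.78), Psmb10 (-0.55), Tlr3 (-0.45), Irf3 (-0.36), Ifngr1 (-0.32) and Ddx58 (-0.26). For Mavs the clones went opposite ways against Fh1_fl_fl, with 0.40 in clone1 and -0.33 in clone19. The Irf7 call (adjusted p = 0.0215) was lost without clone1 replicate 1, clone1 replicate 2 or clone19 replicate 4, with adjusted p = 0.0547 without clone1 replicate 1, 0.0714 without clone1 replicate 2 and 0.0743 without clone19 replicate 4 (range over the alternatives 0.00768 to 0.0743), and the Parp9 call (adjusted p = 0.0251) was lost without the count filter and without clone1 replicate 2 or clone19 replicate 4, with adjusted p = 0.0569 without clone1 replicate 2 and 0.0718 without clone19 replicate 4, and 0.0617 without the filter (range 0.011 to 0.0718).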

How the results depend on the processing

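Over 198 results (33 genes in 6 comparisons) and 3346 alternative values, 0 reversed direction with a call in the main or the alternative fit. Results without a call could change sign, such as Ifit2 in clone1 against Fh1_fl_fl (log2 fold change -0.15 to 0.085 over the alternatives). Of the 198, 172 kept their call under every alternative run and 26 changed it under at least 1, with 46 calls lost and 35 gained. Where a change is printed, the cause was not tested. Without the count filter all 46 listed genes entered the test, so the counts of that run are not over the 33. In it, genes over 2-fold higher came to 2 in clone1 against Fh1_fl_fl and 2 in clone1 against clone19. Genes over 2-fold lower came to 10 in Rec against clone1. DESeq2 gave 2 over 2-fold higher in Rec against clone1, 6 over 2-fold lower in Rec against Fh1_fl_fl and 0 over 2-fold lower in clone1 against clone19, where RLE factors and fits of only the groups compared also gave 0. Fits of only the groups compared gave 1 over 2-fold higher in Rec against Fh1_fl_fl. Leaving out 1 library gave 1 to 2 over 2-fold higher in clone1 against Fh1_fl_fl (2 without Fh1_fl_fl replicate 2 or clone1 replicate 3), 0 to 1 in Rec against Fh1_fl_fl (1 without Fh1_fl_fl replicate 5) and 1 to 2 in clone1 against clone19 (2 without clone1 replicate 3 or any 1 clone19 library). For genes over 2-fold lower it gave 0 to 2 in clone1 against clone19 (0 without clone1 replicate 1, 3 or 4 or clone19 replicate 1 or 3, and 1 without clone1 replicate 2 or 5 or clone19 replicate 5) and 7 to 9 in Rec against Fh1_fl_fl. Library totals moved the median log2 fold change of all genes to -0.17 in clone1, -0.12 in clone19 and -0.17 in Rec against Fh1_fl_fl.

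Replicate numbers did not pair the samples: deviations from the group means correlated at -0.20 to 0.16 between same-numbered libraries of different groups, and the fit with a replicate block changed 0 of the 198 calls. The depth limits Irf7, Dhx58, Tap1 and the 13 untested genes, whose levels lay near 3 counts in many libraries. It also limits the Rec values of Tap2 (10 counts over the 5 libraries), Ifitm3 (22) and Ifit3 (25), on which the fold changes of these genes in Rec rest. Counts were low as well for Usp18 in clone1 (26 over the 5 libraries) and for Slfn9 in clone1 (37) and clone19 (43).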
